A study of Mus musculus with 2 samples.

Results

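Kit+ marrow barcodes that carry early progenitor transcripts, with upper limits set on some stem cell and lineage transcripts, were examined in 2 mouse bone marrow libraries. The members were chosen by measured UMI counts of these same libraries. A barcode belonged to the class when it held at least 1000 unique molecular identifiers (UMIs), under 10% of them mitochondrial, and at least 4 UMIs summed over Cd34, Meis1, Angpt1, Adgrg1, Adgrl4 and Flt3. It also needed at least 1 UMI of the stem cell factor receptor Kit, at most 1 of the stem cell transcription factors Hlf and Mecom, at most 3 of the erythroid genes Klf1 and Car1, at most 1 of the platelet gene Pf4 and at most 2 of the basophil proteases Mcpt8 and Prss34. The neutrophil granule genes Elane, Mpo, Prtn3 and Ctsg had to give under 1% of its UMIs and the alarmins S100a8 and S100a9 under 5%. The rule found 63 barcodes among 13251 kept control barcodes and 63 among 10543 kept barcodes of the MYC library, 126 of 23794 kept and of 31569 deposited barcodes.

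The series profiled hematopoietic cells of bone marrow by droplet-based single-cell RNA sequencing, to compare gene expression after MYC is overexpressed in hematopoietic stem cells. The control library is of the genotype Mx1Cre+/-;Rosa26+/+ and the MYC library of the genotype Mx1Cre+/-;Rosa26LSL-MYC/LSL-MYC, so both carry Mx1-Cre, a Cre recombinase under an interferon-inducible promoter that is active in blood cells and other tissues, and only the second carries, on both Rosa26 alleles, a MYC transgene that stays silent until Cre excises the floxed stop sequence in front of it. The labels give neither the animals' age, strain or number, nor how Cre was induced. With 1 library per group there is no replicate, no test was made, and genotype and library cannot be told apart.

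Multipotent progenitors are the cells just below the blood stem cell: they divide often, no longer sustain the blood for life, and still feed several lineages. They keep Kit and Cd34. The cytokine receptor Flt3 marks those that lean towards lymphoid, dendritic and myeloid fates, while Adgrg1, an adhesion G protein-coupled receptor, is high in stem cells and in progenitors close to them. MYC is a transcription factor that, paired with MAX, drives ribosome production, nucleotide synthesis and growth when such cells leave quiescence.

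The 63 control members held 1193557 UMIs in all, with a median of 18621 (range 2428 to 69363), and the 63 MYC members 1257090, with a median of 16604 (range 1708 to 52674). The members were thus deeper than the other kept barcodes, whose medians were 6655.5 and 7529.5 UMIs. Their median mitochondrial share was 4.63% in control and 3.88% in MYC members. The libraries shared 97 of all barcodes and none of the members. Doublets were left in, as the rule leaves them. The caller Scrublet, at its automatic threshold, marked 670 (5.06%) of the kept control barcodes and 0 of those of the MYC library. Why it called none there was not tested, and its 0 calls do not show that the MYC library lacks doublets. Scrublet marked no control member, and 13 control and 7 MYC members were among the highest 10% of scores in their library. A single predicted gene, Gm42418, which overlaps a ribosomal RNA repeat, gave 173287 of each 1000000 UMIs (CPM) in control members and 66281 CPM in MYC members. Its lower share lifts every other gene in the MYC library: on CPM the median log2 ratio (MYC library over control, pseudocount 1 CPM) over all genes examined was 0.10, and -0.077 when Gm42418 was left out of the totals.

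The class took a like share of both libraries. Members were 0.475% of kept control barcodes (exact 95% Clopper-Pearson interval 0.366 to 0.608) and 0.598% in the MYC library (0.459 to 0.764), a difference of 0.122 percentage points whose Newcombe interval, -0.0692 to 0.321, includes 0. All intervals here cover counting error only. The neighbouring classes, cut the same way, were 68 control and 53 MYC barcodes with Hlf+Mecom of 2 or more, 147 and 82 Kit+ barcodes with at least 4 UMIs of Klf1+Car1, and 478 and 394 Kit+ barcodes with 1% or more granule transcripts. The rule counts UMIs, so it reads a deep barcode differently from a shallow one. At a progenitor sum of exactly 4, the lowest inside, stood 7 control and 15 MYC barcodes, and 6 and 5 stood just outside at 3. Hlf+Mecom was 1 in 17 and 11 members and 2 in 12 and 14 barcodes just outside. Kit was a single UMI in 20 members of each library, while 73 control and 41 MYC barcodes that met every other term had none. Granule transcripts of 0.8% to 1% occurred in 5 and 6 members, and 9 and 11 barcodes just outside had 1% to 1.2%. When every barcode of at least 5000 UMIs was thinned to 5000 before the rule was applied, 45 of 8239 control barcodes (0.546%) and 33 of 7324 in the MYC library (0.451%) met it, so the sign of the difference turned (-0.0956 points, interval -0.327 to 0.138). Only 23 control and 13 MYC members were among them. Of the 22 and 20 barcodes that met the rule only after thinning, 20 and 16 held 2 or more UMIs of Hlf and Mecom at their own depth. Ratios given below for this thinned selection sum all UMIs of its barcodes, with median depths of 21706 (control) and 12922 (MYC), so the choice of barcodes is at equal depth and the sums are not.

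The 4 label markers did not mark a single population. Of the 63 control members 42 had a Cd34 UMI, 34 a Flt3 UMI and 46 an Adgrg1 UMI, and in the MYC library 45, 32 and 40 of 63 did. All of Cd34, Kit, Flt3 and Adgrg1 occurred together in 19 control and 13 MYC members. Flt3 and Gata2, a transcription factor of megakaryocyte, mast cell and basophil precursors, shared only 2 control and 2 MYC members although 34 and 32 had Flt3 and 26 and 27 had Gata2. Dntt, the DNA polymerase of early lymphoid cells, was in no barcode with Gata2 in either library, and 10 of the 12 control and both MYC barcodes with Dntt had Flt3. The class is therefore called here by its rule and divided by the genes that split it.

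A series of gates, set after the values were seen and applied in order, held all but 2 control and 6 MYC members; a gate's own genes are a description of how it was drawn. The first gate took barcodes with at least 10 UMIs of the B cell gene Cd79a, 100 of the plasma cell gene Jchain or 10 of the T cell gene Cd3e. It held 4 control members (6.35%) and 0 of 63 in the MYC library, an exact upper limit of 5.69%. The second took barcodes with at least 0.5% of UMIs from MHC class II genes, 7 control (11.1%) and 10 MYC members (15.9%), whose other leading genes Id2, Ciita, Naaa, Batf3 and Xcr1 are known from dendritic cells. The third, at least 2 UMIs of Dntt, held 9 control members (14.3%, interval 6.75 to 25.4) and 2 of the MYC library (3.17%, 0.387 to 11). Its other leading genes were Cmah, Il7r, the receptor for the lymphoid cytokine IL-7, Notch1 and Flt3. The fourth, at least 2 UMIs of Gata2 or the mast cell protease Cpa3, was of like size in both, with 25 (39.7%) and 24 (38.1%) members led by Apoe, Itga2b, Slc18a2 and Cd63. The fifth, at least 2 UMIs of Irf8, a transcription factor of monocyte and dendritic cell precursors, held 16 (25.4%) and 21 (33.3%), led by F13a1, Csf1r, Ly6c2, Prtn3 and Ctsg.

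**Figure D1:**
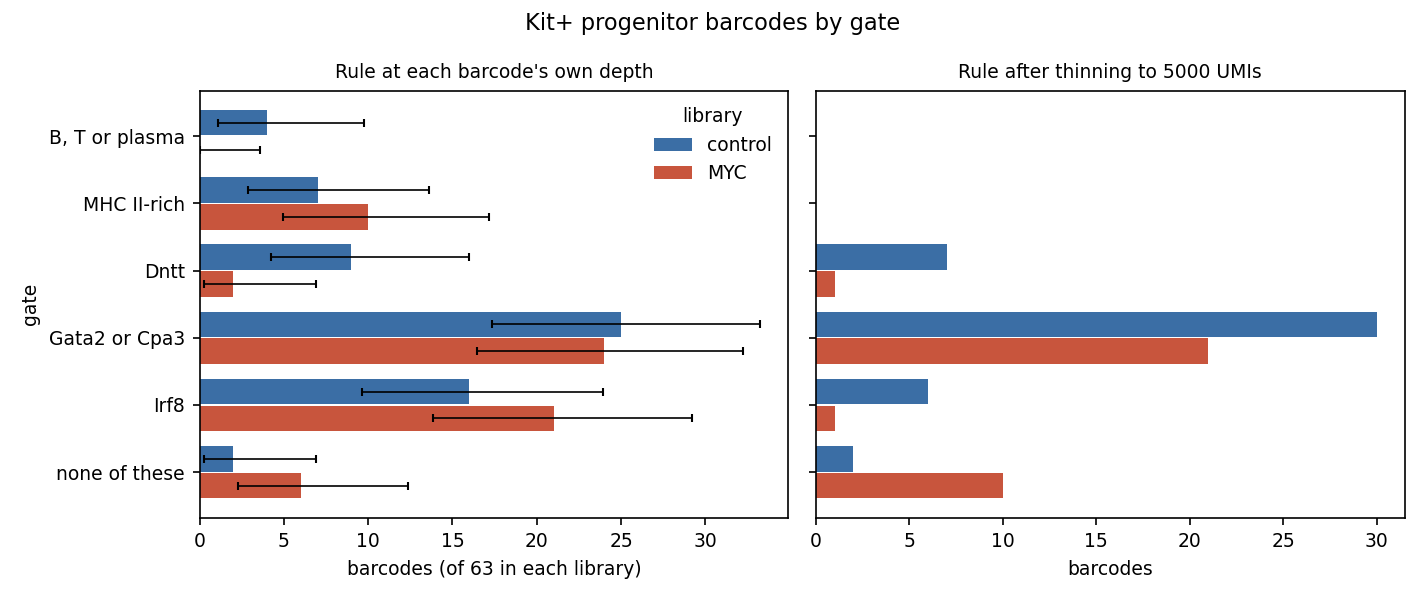
Bars give the number of barcodes (horizontal axis) in each gate (vertical axis) for both libraries, at left by the rule at each barcode's own depth with exact 95% intervals and 63 members per library, at right after thinning to 5000 UMIs. At own depth the Gata2 or Cpa3 gate held 25 and 24 members, the Irf8 gate 16 and 21, and the Dntt gate 9 and 2.

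The Irf8 gate weighed more in the MYC library than its count shows, since its barcodes were deep there: it gave 53.7% of all MYC member UMIs and 30.2% of control member UMIs. The Dntt gate gave 2.62% and 15.3%. Any sum over the class thus mixes gates in different proportions, and values within the gates are given beside the class values. In the thinned selection the Gata2 or Cpa3 gate was the largest with 30 control and 21 MYC barcodes, Dntt held 7 and 1, Irf8 only 6 and 1, and the MHC II and other-lineage gates were empty.

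**Figure D2:**
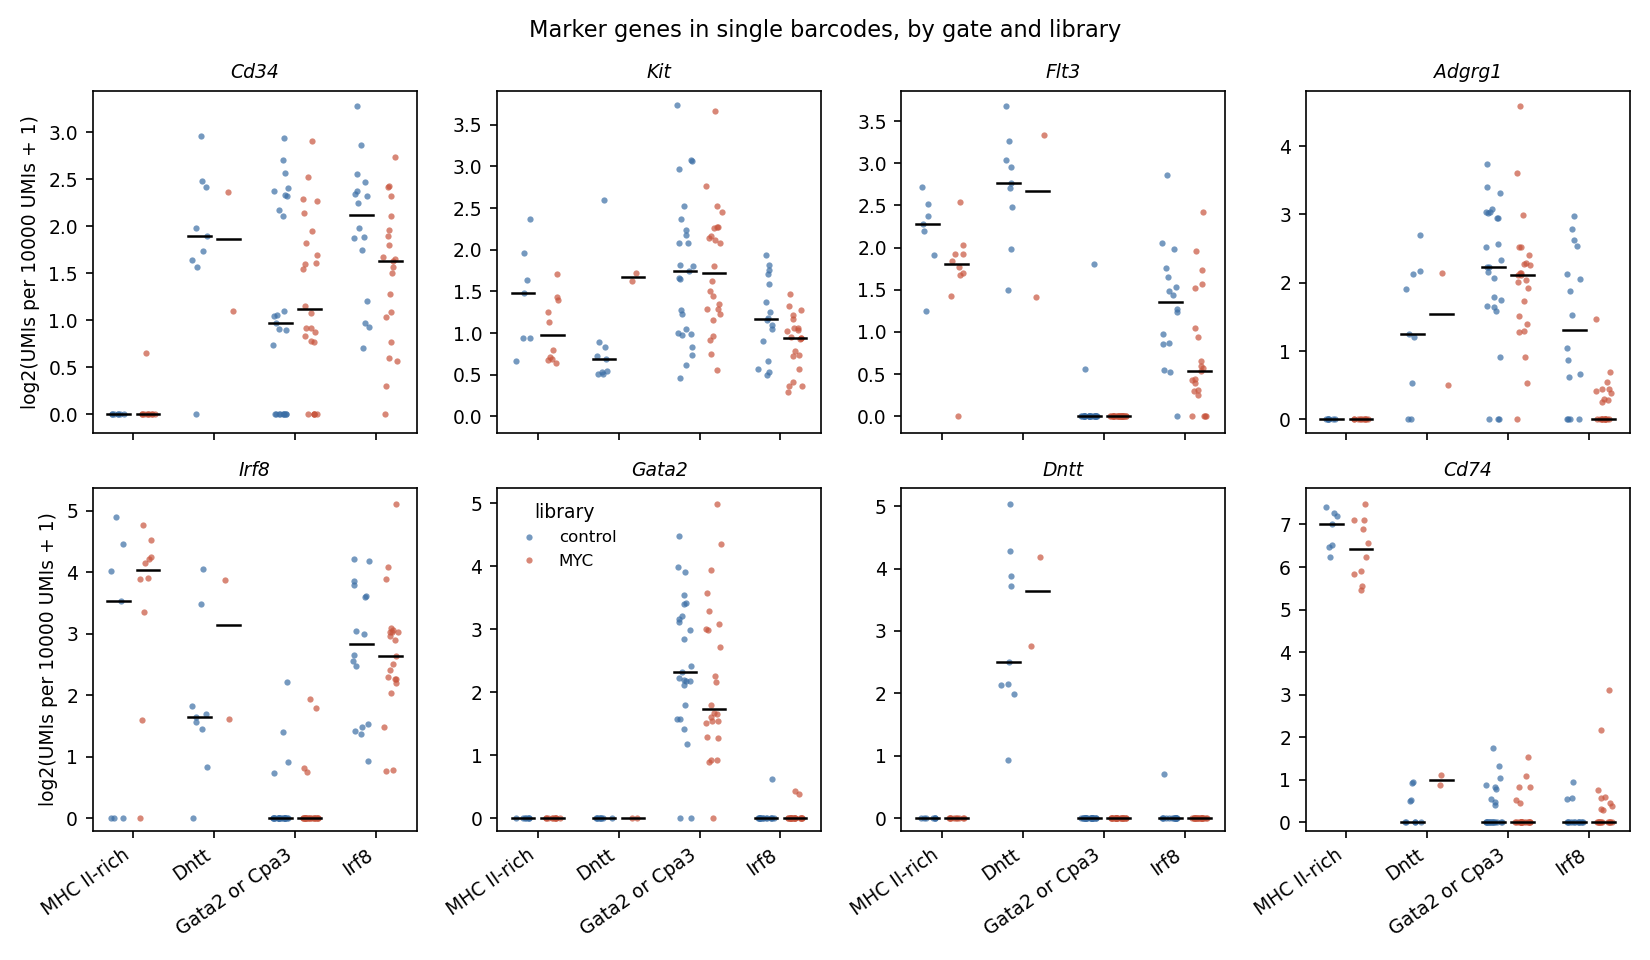
Each point is 1 member and each line a median, with the level of 8 genes (vertical axes, log2 of UMIs per 10000 UMIs plus 1) in 4 gates (horizontal axes), control beside MYC library. Flt3 lies at 0 in nearly every barcode of the Gata2 or Cpa3 gate, and Adgrg1 in the Irf8 gate has its median at 0 in the MYC library alone.

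The 4 markers, which are rule terms and so given as a description, parted along the gates in both libraries. Per 10000 UMIs of a barcode, Flt3 had medians of 5.82 in the 9 control and 5.40 in the 2 MYC barcodes of the Dntt gate, but was 0 in all 24 MYC barcodes of the Gata2 or Cpa3 gate and at most 2.49 in the 25 control ones. Adgrg1 ran the other way: its medians were 3.71 and 3.32 in the Gata2 or Cpa3 gate, and it was 0 in all 7 control and 10 MYC barcodes of the MHC II gate. Cd34 too was 0 in those 7 control barcodes and reached only 0.565 in the 10 MYC ones, so neither Cd34 nor Adgrg1 marks that gate, whose barcodes met the progenitor sum mostly through Flt3. In the Irf8 gate the libraries parted: Adgrg1 had a median of 1.48 (0 to 6.87) in the 16 control and of 0 (0 to 1.78) in the 21 MYC barcodes, with 1 MYC barcode above the control median. Over all members the Kit medians were 1.26 and 1.33.

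At equal depth, Adgrg1 had the widest gap among the 10 single genes read, toward fewer MYC members. Dntt, toward fewer, and Irf8, toward more MYC members, followed with gaps of nearly the same size. After thinning of members to 5000 UMIs (62 control and 59 MYC members were deep enough), Adgrg1 was seen in 58.1% of control members (44.8 to 70.5) and 37.3% of MYC members (25 to 50.9), intervals that overlap, and Dntt in 17.7% (9.20 to 29.5) and 3.39% (0.413 to 11.7). Flt3 was seen in 35.5% and 25.4%, Cd34 in 46.8% and 54.2%, Gata2 in 30.6% and 23.7% and Irf8 in 43.5% and 57.6%. Free RNA was read from barcodes rich in S100a8 and S100a9, neutrophil-type cells that should lack these genes, at the same 5000 UMIs (3998 control and 4236 MYC barcodes). Adgrg1 was seen in 1.70% and 0.661% of them, Dntt in 0.40% and 0.0472%, Flt3 in 0.650% and 0.449%, Cd34 in 0.850% and 0.803%. Cd34, Flt3 and Adgrg1 are terms of the rule, so their higher shares in the members were set by the selection. Dntt and Irf8 (8.48% and 6.09% of the neutrophil-type barcodes) were not, and both were seen in a larger share of members in each library.

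Priming was also read from lists, as the share of thinned members with at least 2 UMIs of a list. For megakaryocyte and erythroid genes this was 53.2% in control and 42.4% in MYC members, above the 18.4% and 11.4% of the neutrophil-type barcodes. The lymphoid share was 64.5% (51.3 to 76.3) and 49.2% (35.9 to 62.5), and that of granulocyte and monocyte genes 75.8% and 89.8%. Both lie below the shares in the neutrophil-type barcodes (79.4% and 68.4% for lymphoid, 99.5% and 99.4% for granulocyte and monocyte genes), so neither is read as expression. Basophil and mast cell genes, at 35.5% and 33.9%, stood against 46.0% and 32.7% in the neutrophil-type barcodes, within counting error of them in both libraries.

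The transgene itself could not be followed in the class. The features include 1 named MYC whose sequence is not stated; it drew 0 UMIs in control members, which allows up to 3 counts, and 1 UMI in those of the MYC library. Endogenous Myc, the mouse gene for the same factor, was at 136 CPM in control members and 145 CPM in MYC members (162 and 182 UMIs), which gave a ratio of 0.09 with an exact interval of -0.22 to 0.41, and -0.082 without Gm42418. Its relative Mycn had 3 and 2 UMIs. Within the Gata2 or Cpa3 gate Myc was higher in the MYC library, with 38 and 66 UMIs and a log2 ratio of 1.0 (0.41 to 1.62), while in the Irf8 gate the ratio was 0.01.

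The genes that chose the class differed in level between the libraries, which is a description since the rule used them. Adgrg1 (chr8:94974751-95014217 on GRCm38, plus strand) was at 277 CPM in control members and 117 CPM in MYC members, a log2 ratio of -1.24 (-1.54 to -0.96). The ratio was -3.28 in the Irf8 gate (86 and 16 UMIs), -0.57 in the Gata2 or Cpa3 gate and -0.28 in the thinned selection. Flt3 (chr5:147330741-147400489, minus strand) was at 163 and 84.3 CPM, a ratio of -0.95 (-1.31 to -0.61), and -1.65 in the thinned selection. Cd34 (chr1:194938819-194961279, plus strand) was at 219 and 180 CPM (-0.28, -0.55 to -0.02) and Kit (chr5:75574916-75656722, plus strand) at 161 and 133 CPM (-0.27, -0.58 to 0.03). The homeobox factor Meis1 had a ratio of -0.75 and the Tie2 ligand Angpt1 one of -0.66, but in the thinned selection they were at 0.015 and 0.011. Adgrl4, an adhesion receptor also known from endothelium, went from -0.46 to 0.98 in the thinned selection.

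Across genes, 3381 had at least 100 UMIs over both libraries in the class. Of these 680 (20.1%) were at least 1.5-fold higher and 367 (10.9%) at least 1.5-fold lower in the MYC library on CPM; with Gm42418 left out of the totals the split was 391 higher and 623 lower. These shares are the background for each list below. The same 3381 genes had a median log2 ratio of -0.06 in the other kept barcodes and -0.02 in the stem-like neighbours. Within the gates the median over genes with enough UMIs there was 0.35 in the Irf8 gate (1426 genes) and 0.16 in the Gata2 or Cpa3 gate (826 genes). In the MHC II gate it was 0.46 (260 genes). Gate values below are to be read beside these, but a ratio of a summed list is another measure than a median over genes. Short genes stood higher and long genes lower: in 4 groups of 845 genes ordered from the shortest to the longest genomic span the median ratio was 0.49, 0.28, 0.00 and -0.28 in the members and 0.27, 0.06, -0.16 and -0.34 in the other kept barcodes. Differences named below sit on that slope, whose part in them was not tested.

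The 12 genes with the highest ratios in the MYC members included 3 histone genes. The linker histone gene Hist1h1b was at 289 CPM in control members and 1270 CPM in MYC members, a log2 ratio of 2.13 (1.97 to 2.31), with UMIs in 36 and 54 members. Hist1h1e followed at 1.76 and the H2A gene Hist2h2ac at 1.62. In the thinned selection Hist1h1b turned to -0.29 and Hist2h2ac to -1.01, while Hist1h1e stayed positive at 0.57. The fatty acid binding protein Fabp5 was at 72.9 and 274 CPM (1.90, 1.57 to 2.27), and at 1.48 in the thinned selection. The translation repressor Eif4ebp1 was at 46.1 and 164 CPM (1.81, 1.39 to 2.29), and the ATP synthase subunit gene Atp5g1 at 1.66. In the thinned selection Eif4ebp1 fell to 0.64 and Atp5g1 to 1.01. The metallothionein Mt1, a metal-binding protein, was at 32.7 and 123 CPM, a ratio of 1.88 (1.40 to 2.46). In the other kept barcodes Mt1 had a ratio of -0.22, whereas Fabp5 had 1.08 and Eif4ebp1 1.12.

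The other five were a galectin, an alarmin, a thiol reductase and a pair of membrane proteins. The galectin Lgals3 had a ratio of 1.84 (72.9 and 264 CPM), the alarmin S100a4 1.76, the lysosomal thiol reductase Ifi30 1.58 and the granulocyte precursor gene Ms4a3 1.55. Ifitm1, a membrane protein of stem cells and progenitors, was at 222 and 733 CPM (1.72, 1.52 to 1.92). It had a similar ratio, 1.91, in the other kept barcodes and one of 1.05 in the thinned selection. All 12 of the highest genes were higher within the Irf8 gate, 11 within the MHC II gate and 9 within the Gata2 or Cpa3 gate. In that last gate S100a4 (-2.52) and Lgals3 (-1.59) were lower in the MYC library and Ifi30 was not higher. The class ratio of these genes is therefore not shared across the class.

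Among the lowest genes, Dntt had 229 UMIs in 12 control members and 29 UMIs in 2 MYC members, a ratio of -3.00 (-3.67 to -2.49), and -1.95 in the thinned selection. In the other kept barcodes its ratio was -0.99. The chromatin regulator Kmt2a, a histone methyltransferase needed by blood stem cells, was at 170 and 56.5 CPM (-1.57, -2.00 to -1.19), with UMIs in 56 and 44 members, and at -0.57 in the thinned selection. The PI3 kinase subunit Pik3r1 was at 111 and 36.6 CPM (-1.57, -2.11 to -1.10), and at -0.36 in the thinned selection. The desaturase Scd2 had -1.54, the zinc finger factor Zbtb20 -1.48, the kinase substrate Marcks -1.46 and Gse1 -1.38; in the thinned selection Scd2 had -1.60, Zbtb20 -0.80 and Gse1 -0.55, so Kmt2a, Pik3r1 and Gse1 fell short of the fold there. The interferon-induced gene Ifi27l2a had -1.68. Carbonic anhydrase Car2 had -1.33, but 0.34 in the thinned selection. Of the chitinase-like gene Chil3 (-1.57), 59.6% of the control UMIs came from 1 barcode. Gm15564 (-2.60), a predicted gene, and Gm42418 (-1.39) were lower in the other kept barcodes too, at -2.21 and -0.96. Of the 12 lowest genes, 11 were lower in the Gata2 or Cpa3 gate, 11 in the Irf8 gate and 9 in the MHC II gate.

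**Figure D3:**
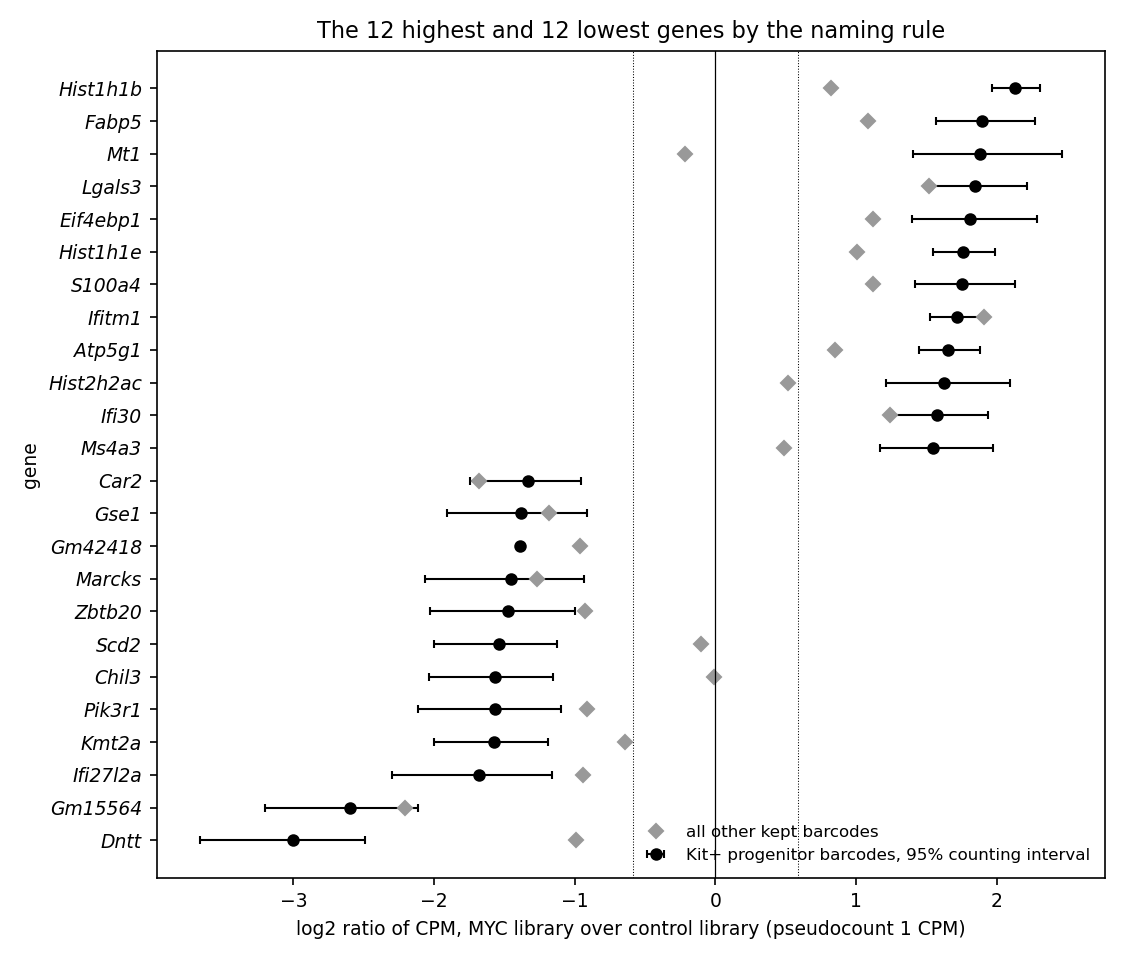
For the 12 highest and 12 lowest genes the log2 ratio of CPM (MYC library over control, horizontal axis) is drawn in the members (black, exact 95% counting interval) and in the other kept barcodes (grey), with dotted lines at 1.5-fold. Hist1h1b (2.13) is the highest and Dntt (-3.00) the lowest in the members, and Mt1 is the gene among the highest 12 whose value in the other barcodes (-0.22) is below 0.

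Genes known to be induced by MYC were higher in the MYC members. Of 44 listed ribosome biogenesis, growth and metabolism genes 36 had enough UMIs, 16 of them were at least 1.5-fold higher and none at least 1.5-fold lower, against 20.1% and 10.9% of all genes. Their median log2 ratio was 0.56 (order-statistic interval 0.40 to 0.77), 0.38 without Gm42418 and 0.22 in the thinned selection, against 0.20 in the other kept barcodes. The transferrin receptor Tfrc (1.46) and the serine hydroxymethyltransferase Shmt2 (1.17) were the highest. The nucleolar proteins Ncl (1162 and 1707 CPM, 0.55) and Npm1 (0.56) lay at the median, and at 0.21 and 0.062 in the thinned selection. The ribosome assembly factor Bop1 (-0.34) and the cyclin Ccnd2 (-0.30) were the lowest.

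Per barcode and gate the list was higher in the MYC library too. Per barcode, the list took a median of 75.1 UMIs per 10000 (range 15.3 to 176) in control members and 112 (30.7 to 204) in MYC members, and the ranges overlapped. In the Irf8 gate the medians were 94.0 and 145, with 12 of 21 MYC barcodes above the highest control barcode. In the Gata2 or Cpa3 gate they were 66.4 and 98.8, with 23 of 24 MYC barcodes above the control median, and in the MHC II gate 32.8 and 56.4. The log2 ratios of the summed list were 0.69, 0.55 and 0.38 in these gates. The median over list genes with enough UMIs was 0.71 in the Irf8 gate (28 genes) and 0.51 in the Gata2 or Cpa3 gate (21 genes). The medians of all genes there were 0.35 and 0.16. In the MHC II gate only 3 list genes had enough UMIs, with a median of 0.65 against 0.46 for all genes, too few for a list median.

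**Figure D4:**
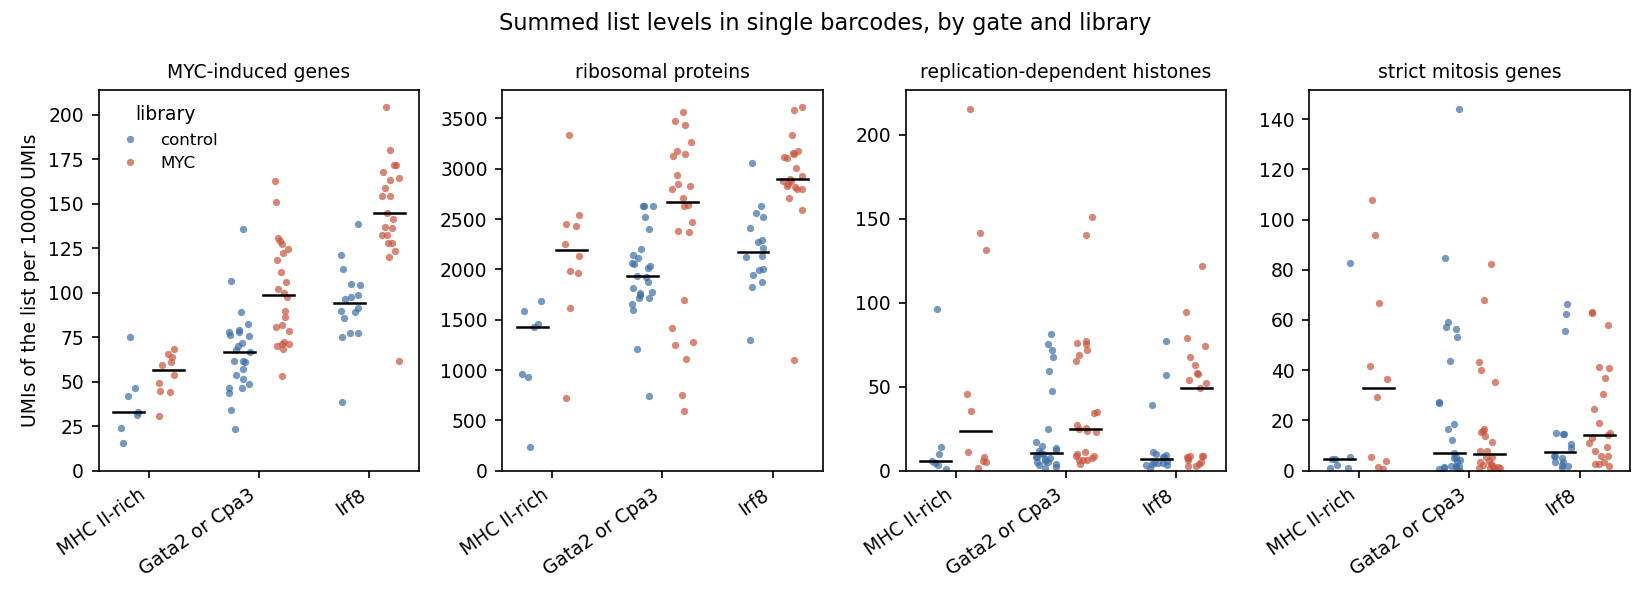
Each point is 1 member and each line a median, with the UMIs per 10000 (vertical axes) that come from MYC-induced, ribosomal protein, histone and mitosis genes in 3 gates (horizontal axes), by library. The MYC-induced share is higher in the MYC library in each gate drawn, with medians of 145 against 94.0 in the Irf8 gate.

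The promoters of some of these genes are shown because MYC with its partner MAX is known to bind the E-box CACGTG, a palindrome that reads the same on both strands. RefSeq promoters (GRCm38.p6, 250 bases before to 50 after the start) were matched for 37 of the 44 MYC-induced genes, and 13 of these (35.1%) held CACGTG, against 8.09% of 27025 genes with a promoter and 12.6% of the 2729 matched genes with enough UMIs in the members. The 3 printed hold 2, 3 and 4 copies and were chosen for these copies after the values were seen. They are the windows of Ldha, lactate dehydrogenase (plus strand, chr7:46845554-46845853), Apex1, a DNA repair nuclease (plus strand, chr14:50924699-50924998), and Cdk4, a kinase of G1 phase (plus strand, chr10:127063285-127063584), with the E-boxes in capitals.
Ldha: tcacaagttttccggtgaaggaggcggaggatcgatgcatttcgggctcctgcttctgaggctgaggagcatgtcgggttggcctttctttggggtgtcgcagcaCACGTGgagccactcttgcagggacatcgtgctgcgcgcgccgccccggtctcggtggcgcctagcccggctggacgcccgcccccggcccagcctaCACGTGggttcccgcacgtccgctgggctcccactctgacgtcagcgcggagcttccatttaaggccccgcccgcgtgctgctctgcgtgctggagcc
Apex1: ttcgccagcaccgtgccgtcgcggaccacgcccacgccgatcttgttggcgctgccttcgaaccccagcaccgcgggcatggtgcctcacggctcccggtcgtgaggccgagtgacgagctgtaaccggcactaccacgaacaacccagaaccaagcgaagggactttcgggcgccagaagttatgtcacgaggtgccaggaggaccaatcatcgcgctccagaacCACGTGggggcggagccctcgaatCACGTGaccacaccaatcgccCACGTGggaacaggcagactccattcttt
Cdk4: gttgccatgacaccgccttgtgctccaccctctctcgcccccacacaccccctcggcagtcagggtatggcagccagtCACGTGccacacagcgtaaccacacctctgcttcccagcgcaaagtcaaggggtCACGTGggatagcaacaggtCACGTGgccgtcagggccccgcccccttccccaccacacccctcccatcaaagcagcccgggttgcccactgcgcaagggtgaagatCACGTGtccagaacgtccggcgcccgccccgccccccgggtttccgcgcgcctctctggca
Ldha was at 275 CPM in control and 448 CPM in MYC members (0.70, 0.51 to 0.91), Apex1 at 82.1 and 119 CPM (0.53, 0.16 to 0.92) and Cdk4 at 181 and 215 CPM (0.25, -0.02 to 0.51). In these 3 genes, chosen for their copies, the ratio was lower where there were more copies. A match of letters is no evidence of binding here.

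Ribosomal protein genes took a larger part of the transcripts in the MYC members, 277954 CPM in all against 199318 CPM in control members. Of 79 measured genes 34 were at least 1.5-fold higher and none lower by as much, with a median ratio of 0.54 (0.39 to 0.63), 0.42 in the thinned selection and 0.37 without Gm42418. Rpl10 (1.15) and Rps18 (1.12) were highest, Rpl37a (-0.36) and Rps28 (-0.22) lowest. The other kept barcodes had a median of 0.65 and the stem-like neighbours one of 0.56, so the difference was of like size outside the class. Many ribosomal protein genes have near-identical pseudogenes that can share reads, which makes single genes uncertain.

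Among metabolic enzymes the glycolysis list stood higher, while the count for nucleotide synthesis was near that of all genes. Each list shares 2 genes with the MYC-induced list. Of 19 nucleotide synthesis enzymes 5 were at least 1.5-fold higher and none lower, with a median of 0.29 (0.12 without Gm42418, 0.16 in the thinned selection), and -0.05 in the other kept barcodes. Without the 2 shared genes 4 of 17 were higher. Mthfd2, the mitochondrial folate enzyme, had the highest ratio (1.93, 24 and 100 UMIs), then the diphosphate kinase Nme2 (1.39), while Gart (-0.15) and Rrm1 (-0.12) were the lowest. Of 13 glycolysis genes 6 were higher and none lower, with a median of 0.47 (0.29 without Gm42418, 0.19 in the thinned selection), Gapdh at 1.07 and Eno1 at 0.95, and hexokinase Hk1 (-0.53) and Pfkl (-0.29) at the other end. The summed nucleotide synthesis list had ratios of 0.63 in the Irf8, 0.56 in the Gata2 or Cpa3 and 0.93 in the MHC II gate. Those of the summed glycolysis list were 0.70, 0.25 and 0.36. In the MHC II gate only 1 gene of each list had enough UMIs.

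Genes that MYC is known to repress stood lower in part, and few genes of the MYC network could be measured. Mxd4, a MAX partner that opposes MYC, had a ratio of -1.06 and was the only 1 of 4 measured network genes past the fold; Mga (-0.39), Max (-0.24) and Myc (0.09) were not. The summed network had a ratio of -0.027 in the Gata2 or Cpa3 gate and -0.29 in the Irf8 gate. Of 9 genes repressed by MYC, a list that also holds Mxd4, 4 were at least 1.5-fold lower and 1 higher, with a median of -0.58, against -0.28 in the other kept barcodes. The antiproliferative gene Btg2 (-1.21) and Mxd4 were lowest and the cell cycle inhibitor Cdkn1b (-0.58, just short of the fold) was the middle gene, while the inhibitor Cdkn2d (0.91) and the quiescence factor Klf2 (0.56) were higher.

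In the class sums, the medians of S phase and G2/M genes lay near that of all genes. The median level per barcode was higher in MYC members for each summed list. Per 10000 UMIs it was 25.1 in control and 33.9 in MYC members for S phase and 33.8 and 51.2 for G2/M. For strict mitosis genes it was 6.43 and 11.7. Of 31 S phase genes 3 were higher and none lower by 1.5-fold, with a median of 0.03, and of 38 G2/M genes 6 were higher and 2 lower, with a median of 0.12. Both medians turned negative without Gm42418, to -0.15 and -0.051, and that of G2/M was -0.54 in the thinned selection. Tipin (1.09) and the thymidylate synthase Tyms (1.06) led S phase, with Dtl (-0.37) and E2f8 (-0.33) lowest. The mitotic kinase Cdk1 (1.0) and Cks1b (0.95) led G2/M, with G2e3 (-0.78) and Ncapd2 (-0.73) lowest, and in the thinned selection Cdk1 turned to -0.18, Cks1b to -0.44 and the mitosis gene Birc5 from 0.81 to -0.090. Thinned members with at least 3 UMIs of a strict mitosis list made up 58.1% in control and 57.6% in MYC. The summed mitosis list was lower in the MYC library within the Gata2 or Cpa3 gate (-0.67) and higher within the Irf8 (0.40) and MHC II gates (0.66).

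The replication-dependent histone genes, a list drawn up after the values were seen, gave 2235 CPM in control members and 4907 CPM in MYC members. Of 67 features 17 had enough UMIs and 13 of them were at least 1.5-fold higher, none lower, with a median of 0.99, against 0.13 in the other kept barcodes and -0.32 in the stem-like neighbours. Per barcode the median was 8.15 UMIs per 10000 in control and 25.5 in MYC members, and 6.88 and 49.2 in the Irf8 gate. The sum was higher in each large gate, by log2 ratios of 1.37 (Irf8), 1.12 (MHC II) and 0.76 (Gata2 or Cpa3). In the thinned selection, which holds only 1 MYC barcode of the Irf8 gate, the median was -0.16. Hist1h2ap (0.04) and Hist1h2bc (-0.29) did not share the difference. Most such histone messages end in a stem-loop without a poly(A) tail, so a 3′ poly(A) library samples them in part, and near-identical copies can share reads.

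**Figure D5:**
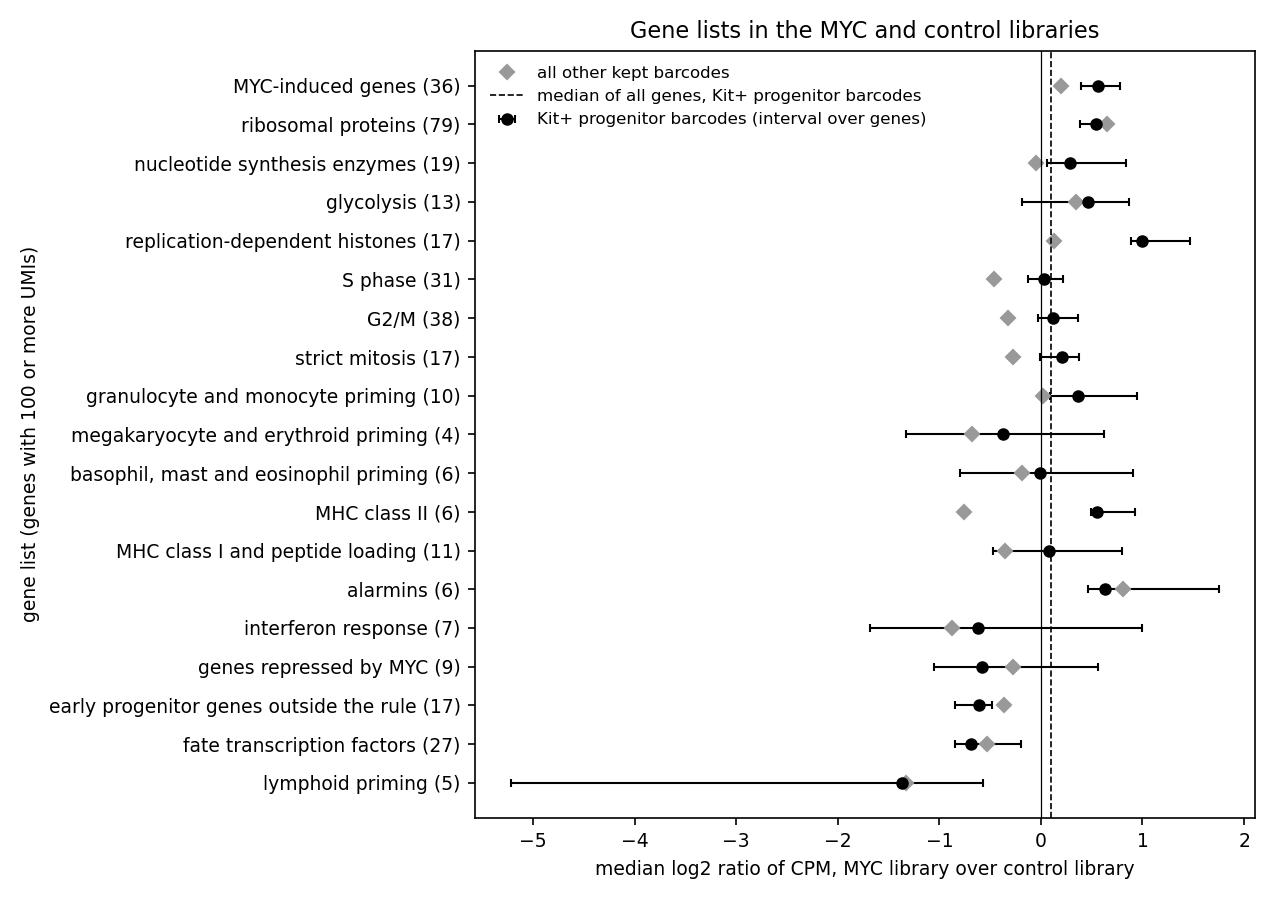
The median log2 ratio (MYC library over control, horizontal axis) of each gene list is drawn for the members (black, order-statistic interval over genes) and the other kept barcodes (grey), with the number of genes counted in brackets and a dashed line at the median of all genes. Histones (0.99), MYC-induced (0.56) and ribosomal protein genes (0.54) lie to the right, fate transcription factors (-0.69) and lymphoid genes (-1.36) to the left.

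Genes of early progenitors that the rule did not use were lower in the MYC members. Of 17 measured, 10 were at least 1.5-fold lower and 1 higher, against 10.9% and 20.1% of all genes, with a median of -0.61 (-0.85 to -0.48), and -0.42 in the thinned selection. The ETS factor Fli1 was at 111 and 50.1 CPM (-1.13, -1.60 to -0.70), the factor Mef2c at -0.96 and Sox4 at 430 and 223 CPM (-0.95), with Myb at -0.61 and Runx1 at -0.51. In the thinned selection these were at -0.49 (Fli1), -1.38 (Mef2c), -0.45 (Sox4), -0.044 (Myb) and -0.30 (Runx1), so of those past the fold only Mef2c was past it there. Cd48, a surface protein that most stem cells lack and many progenitors carry, was the 1 gene past the fold upwards (0.64), and had -0.11 in the thinned selection. The stem-like neighbours had a median of -0.34 and the other kept barcodes -0.36. Summed over the list the ratio was -0.71 in the Irf8, -0.49 in the Gata2 or Cpa3 and -0.27 in the MHC II gate. Of the 20 stem cell genes outside the rule only Ifitm1 had enough UMIs.

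Fate transcription factors were mostly lower. Their list is not independent of the last: 14 of its measured factors, Fli1, Mef2c, Sox4, Myb and Runx1 among them, are early progenitor genes too, and of the 13 others 8 were at least 1.5-fold lower and 2 higher. Of all 27 measured factors 17 were at least 1.5-fold lower and 2 higher, with a median of -0.69, -0.53 in the other kept barcodes. The 2 higher were Cebpb (1.37, 45.2 to 118 CPM) and Spi1 (0.75, 143 to 242 CPM), both drivers of myeloid fate. Irf8 (0.38) and Cebpa (0.12) did not pass the fold, and in the thinned selection Irf8 was at -0.69 and Spi1 at 0.29. Satb1, a chromatin organiser of lymphoid progenitors, was at 127 and 50.1 CPM (-1.33), and Gata2 at 175 and 100.2 CPM (-0.80), the latter 0.13 in the thinned selection.

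Lymphoid genes were lower, with few genes and few barcodes behind them. Of 5 measured genes 4 were at least 1.5-fold lower and none higher, with a median of -1.36, -0.64 in the thinned selection, and -1.32 in the other kept barcodes. Summed over the list the ratio was -1.10 in the Irf8 gate and -0.91 in the Gata2 or Cpa3 gate, while the intervals included 0 in the Dntt gate (-0.18, -0.54 to 0.16) and the MHC II gate (-0.19, -0.72 to 0.35). Besides Dntt and Satb1 these were Notch1 (71.2 and 27.0 CPM, -1.36) and the immunoglobulin gene Ighm (-5.22), of which 94.8% of control UMIs came from 1 barcode; without the 4 other-lineage members Ighm was at -0.91 and the list median at -1.41. Il7r had 38 UMIs in 7 control members and 5 UMIs in 3 MYC members. The plasma cell genes Igkc (11443 and 174 UMIs) and Jchain (1901 and 10) came mostly from 1 control barcode each, which held 96.5% and 98.6% of their control UMIs.

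Granulocyte and monocyte genes were higher over the class but not within its Irf8 gate. Of 10 measured genes 4 were at least 1.5-fold higher and none lower, with a median of 0.37, and 0.02 in the other kept barcodes; Ms4a3 (1.55) and the chemokine receptor Ccr2 (0.95) were highest and Nkg7 (-0.07) and the transglutaminase F13a1 (0.09) lowest. Within the Irf8 gate, which gave a larger part of the MYC members' UMIs, the summed list had a ratio of 0.057 (-0.075 to 0.19) and in the MHC II gate one of -0.16 (-0.40 to 0.088), against 0.29 (0.087 to 0.50) in the Gata2 or Cpa3 gate. Granule proteases, which the rule limits, did not move as 1: Ctsg was at 323 and 1336 CPM (2.04) and Prtn3 at 714 and 1668 CPM (1.22), while Mpo (1740 and 1352 CPM, -0.36) and Elane (292 and 194 CPM, -0.58) were lower. Within the Irf8 gate Ctsg was at 1.70, Prtn3 at 1.13, Elane at 0.36 and Mpo at -0.79. Within the Gata2 or Cpa3 gate none was lower: Ctsg was at 2.42, Prtn3 at 0.86, Elane at 0.59 and Mpo at 0.058 (-0.11 to 0.23). In the thinned selection these genes stood at 0.73 (Ctsg), -0.38 (Prtn3), -1.36 (Mpo) and -2.19 (Elane), so the sign of Prtn3 turned. Without the other-lineage members Elane was at -0.14 and Mpo at -0.33. Over all alternatives Elane ranged from -2.19 to 1.34 and Mpo from -1.36 to 1.23, so the direction of both in the class depended on the setting. Markers of mature monocytes summed to 756 UMIs in control and 1240 in MYC members, those of neutrophils to 1500 and 1286 CPM, of macrophages to 28 and 43 UMIs, of plasmacytoid dendritic cells to 95 and 83 UMIs, and haemoglobin to 793 and 407 CPM. B lineage markers summed to 291 and 41 UMIs and T and NK markers to 120 and 4. Of the 6 monocyte markers Ccr2, Csf1r and F13a1 also stand in the granulocyte and monocyte list. The part of such transcripts in the differences was not tested.

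Megakaryocyte, erythroid, basophil and mast cell genes showed no common direction. Of 4 measured megakaryocyte and erythroid genes Apoe (0.62) was past the fold upwards and Car2 downwards, with Itga2b (-0.47) and Muc13 (-0.28) between. Of 6 basophil, mast cell and eosinophil genes the eosinophil peroxidase Epx (0.91) was higher and Gata2 lower, with Cpa3 at 0.35 and the histidine decarboxylase Hdc at -0.29.

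Interferon-response genes were mostly low. Of 39 features only 7 had enough UMIs; 4 were at least 1.5-fold lower and 1 higher, with a median of -0.62, -0.88 in the other kept barcodes and 0.13 in the thinned selection. The list summed to 1077 CPM in control and 795 CPM in MYC members, and was lower in each large gate (-0.33 in the Gata2 or Cpa3, -0.46 in the Irf8 and -1.34 in the MHC II gate). Ifi27l2a (-1.68) was lowest and the antiviral tether Bst2 (84.6 and 169 CPM, 0.99) highest. Of the 31 genes of this list with a promoter, 20 (64.5%) held the interferon-response motif GAAANNGAA on either strand, against 9.76% of all, and none held CACGTG. Both genotypes carry the interferon-inducible Mx1-Cre.

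Antigen presentation, alarmin and surface receptor genes completed the lists. Of 11 MHC class I and peptide-loading genes 4 were higher and 1 lower by 1.5-fold (median 0.08), with the immunoproteasome subunits Psmb8 (297 and 617 CPM, 1.05) and Psmb10 (0.79) at the top and Tapbp (-0.64) and Tap2 (-0.47) at the bottom. Of 6 MHC class II genes 2 were higher, with a median of 0.55 that was -1.71 with a progenitor sum of at least 6. Within the MHC II gate the order was the other way: the list summed to 2363 UMIs in control and 3727 in MYC barcodes, a ratio of -0.23 (-0.31 to -0.16), with a median of -0.25 over 5 genes. These genes sit in few barcodes: H2-Aa had UMIs in 17 control and 19 MYC members. H2-DMb1 (0.92) and H2-Ab1 (0.71) were highest and H2-Aa (0.49) and Cd74 (0.51) lowest. Of 6 alarmins 3 were higher and none lower (median 0.63, 0.81 in the other kept barcodes): S100a4 (1.76) and S100a6 (0.74) were highest and S100a11 (0.53) and S100a10 (0.46) lowest. S100a6 was at -0.030 with a progenitor sum of at least 6. Pycard, the inflammasome adaptor, was at 99.7 and 255 CPM (1.34). The apoptosis gene Bax was at 0.93, while the median of the measured Bcl2 family genes, Bax among them, was 0.015. Of 7 cytokine receptors none passed the fold in either direction (median 0.14), and of 17 adhesion and homing genes 2 were higher and 1 lower (median -0.17). Of 8 G1 cyclins, kinases and inhibitors 1 was higher (Cdkn2d), with Rbl1 at 0.44 and Cdk6 at -0.48. Of 11 immediate early genes 1 was lower and none higher, with a median of -0.04.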

How the data were processed

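The deposited values are raw UMI counts, whole numbers for each feature in each barcode. Per the file headers the authors used Cell Ranger 6.0.0; the submitters' processing notes also name Seurat and the build GRCm38 (mm10). How barcodes were called as cells and how strand was counted is not given in the sources used here. Droplet 3′ kits count transcript ends, and nothing was corrected for free RNA, doublets or library differences. Each of the 32286 features was matched by identifier to GENCODE vM21 for positions (32158 matched).

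Members were found by the rule on raw counts. Their counts were summed per library and divided by the class total (CPM). Ratios are log2 of CPM plus a pseudocount of 1, a scale that understates the change of low genes, with exact conditional binomial intervals. Shares have Clopper-Pearson intervals, all at 95%. Genes with at least 100 UMIs over both libraries and 1.5-fold were used for counts; list medians need at least 4 such genes. Thinning drew 5000 UMIs per barcode with a fixed seed. Named genes are the 12 highest and 12 lowest ratios where the mean was 50 CPM or more and the interval excluded 1, leaving out rule genes, other-cell markers and mitochondrial, immunoglobulin, T-cell receptor, haemoglobin and sex-linked genes, plus the 2 highest and 2 lowest of each list and the rule's main genes. Ncl, Npm1, Ldha, Apex1, Cdk4, Sox4, Myb, Runx1, Irf8, Cebpa, Mpo, Elane, Il7r, Igkc and Jchain were added after their values were seen. The members, lists and gates were chosen with earlier results of these data known. The ratio code was tested on simulated data. Python 3.11.15, numpy 2.4.6, scipy 1.17.1, pandas 2.3.3, scanpy 1.11.5 (Scrublet) and matplotlib 3.10.9 were used. Alternatives changed the thresholds of the rule, depth, scaling, filters, pseudocount and doublets. Sex-linked genes were not analysed here. Some genes that the naming rule picks are not reported here.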

Additional observations from a re-analysis of the deposited data

How the results depend on the processing

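Of 484 values of class shares, counts and gene list medians under alternatives, 435 stayed within the main value's interval or within 1.5 times its count and 48 moved beyond it. In 1 the sign turned of a main value whose interval excludes 0. For single genes, the histone median and the median of all genes together these numbers were 2091, 1800, 271 and 20, the last counting single genes only where the main ratio was at least 1.5-fold and its interval excluded 0. Scaling without Gm42418, and leaving out the other-lineage, MHC II or high-doublet-score members, were chosen after seeing the data. No paired analysis was possible because each group is 1 library.

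Scaling set the split of higher and lower genes and shifted the ratios of genes with enough UMIs by nearly the same amount. With totals without Gm42418, median-of-ratios scaling and totals without the 20 most abundant genes, the counts were 391 and 623, 384 and 629, and 370 and 652, and the median of all genes -0.077, -0.082 and -0.097. In that order the medians were 0.38, 0.38 and 0.36 for MYC-induced genes, -0.15, -0.15 and -0.17 for S phase, -0.051, -0.056 and -0.071 for G2/M, 0.37, 0.36 and 0.34 for ribosomal proteins, -0.86, -0.86 and -0.88 for fate factors, 0.38, 0.37 and 0.36 for MHC class II and 0.46, 0.45 and 0.44 for alarmins. With no filter on UMIs the median of all genes was -0.070.

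Thinning every barcode to 5000 UMIs before the rule gave other members: 170 genes higher and 192 lower, medians of -0.031 (all genes), 0.22 (MYC-induced), -0.54 (G2/M), -0.42 (early progenitor genes), 0.36 (immediate early genes) and -0.16 (histones), and a share difference of -0.0956 points. Genes named with a main ratio of at least 1.5-fold, an interval that excludes 0 and a sign that turned there were Angpt1 0.011, Meis1 0.015, Birc5 -0.090, Car2 0.34, Cd48 -0.11, Cdk1 -0.18, Cks1b -0.44, Gata2 0.13, Hist1h1b -0.29, Hist2h2ac -1.01, Ighm 0.18 and Prtn3 -0.38.

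With mitochondrial UMIs under 5%, 244 genes were lower, and the medians of ribosomal proteins and of granulocyte and monocyte genes were 0.68 and 0.98. A progenitor sum of at least 6 gave early progenitor genes -0.44, genes repressed by MYC -1.07, MHC class II -1.71, H2-Ab1 -1.40 and S100a6 -0.030. MHC class II was 0.18 with a sum of at least 3, 0.29 with Hlf+Mecom of 0, 0.41 without other-lineage members and 0.29 with the mean of per-cell CPM, where early progenitor genes were -0.45. Without members of high doublet score, fate factors were -0.86. Removing members with 3 or more other-lineage UMIs left 4 control and 13 MYC members, 92 genes higher and 6 lower, and ribosomal proteins at 0.66. The alternative of members with 0 mitosis UMIs was not run, since 1 control and 0 MYC members had none.

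The depth of 63 barcodes per library limits genes under 100 UMIs; the causes of these changes were not tested.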
